A study of Mus musculus with 20 samples.

Results

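The genes described here mark 2 stages of the oligodendrocyte lineage. Pdgfra, Cspg4, Vcan, Ptprz1 and Nkx2-2 are used as genes of oligodendrocyte precursor cells (OPCs), and Gpr17, Enpp6 and Bcas1 as genes of committed precursors. Their regions were taken from the deposited table of ATAC-seq consensus regions by gene symbol, which gave 20 of 32120 regions for 8 of the 15292 genes named there. Peaks of all assays were then taken from each gene body with 20 kb on each side (mm10), which gave 460 of the 709356 peaks in the lists. The cells were GFP-positive cells sorted from the neocortex of mouse pups at postnatal day 7 or 8, and all carried Nkx2.1-Cre, which marks cells born from Nkx2.1-expressing radial glia of the ventral telencephalon. WT pups carried Nkx2.1-Cre with the Ai3 reporter, a Cre-dependent EYFP. Tcf4 cKO pups carried the same driver and reporter with both Tcf4 alleles floxed (Tcf4f/f), so that Tcf4 was deleted only where Nkx2.1-Cre had been active. Tcf4-tag cells carried a Cre-dependent 3xHA-3xFlag tag on the endogenous Tcf4 protein, and were profiled with an antibody to Flag. ATAC-seq, which reads open chromatin, and Cut&Tag for H3K4me1, H3K27ac and H3K27me3 had 2 libraries for each genotype, and Tcf4 occupancy had 2 libraries. The labels do not say whether these came from separate pups, so the p-values measure the spread between libraries, which may be technical.

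OPCs divide and migrate through the brain, and part of them leave the cell cycle as committed precursors before they become myelinating oligodendrocytes. Pdgfra encodes the receptor through which platelet-derived growth factor drives OPC division, Cspg4 encodes the NG2 proteoglycan on the OPC surface, Vcan encodes the matrix proteoglycan versican, and Ptprz1 encodes a receptor tyrosine phosphatase that carries chondroitin sulfate. Nkx2-2 is a homeodomain transcription factor of the lineage. Gpr17 encodes a G protein-coupled receptor that is switched on for a short time in committed precursors, Enpp6 a choline phosphodiesterase of newly forming oligodendrocytes, and Bcas1 a protein of early myelinating cells. Tcf4 is a class I basic helix-loop-helix factor. Factors of this class bind E-boxes, whose core is CANNTG, as dimers. H3K4me1 lies at enhancers whether or not they are active, H3K27ac at active enhancers and promoters, and H3K27me3 at chromatin repressed by Polycomb.

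The sorted pool held more than 1 cell type. In ATAC-seq, 3 to 4 of 6 interneuron markers and 3 of 5 astrocyte markers had a peak within 1 kb of the gene start in each library, with no separation of the genotypes. For markers of myelinating oligodendrocytes this held for 2 to 3 of 5, for microglia 2 of 5 and for endothelium 2 of 4 in each library, and for projection neurons 1 of 4 in WT libraries and 0 of 4 in Tcf4 cKO libraries. H3K27ac was at 1 interneuron marker, 2 to 3 astrocyte markers, 2 myelination markers, no microglial marker and at most 1 endothelial marker in any library. Among the 8 genes described here, Bcas1, Pdgfra and Enpp6 had no ATAC-seq peak at the start of the annotated gene in any library, and their consensus regions lay elsewhere inside or outside the gene. In such a pool, fewer cells of a type and less open chromatin per cell cannot be told apart. The lists held 15082 to 72788 peaks, and give no read totals. A peak is described below by its summit pileup, the whole number of extended reads over its highest point, which was recovered from the deposited fold enrichment and p-value of every narrow peak. The ATAC-seq libraries had a median summit pileup over consensus regions of 35.0 and 44.0 in WT and of 32.0 and 31.0 in Tcf4 cKO, so pileups are also given relative to that median.

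Each of the 8 windows held a reproducible Tcf4 region, where peaks of both Tcf4-tag libraries met. The share of other genes' windows that held such a region was not computed. Reproducible Tcf4 regions numbered 14 in the windows, of 14085 in all. At Nkx2-2 the only such region lay at +13.2 kb, in a consensus region assigned to Nkx2-2os, and the consensus region of Nkx2-2 itself held none. Of the 20 consensus regions, 13 were covered by such regions over at least 30% of their length (65.0%, against 36.3% of all consensus regions). Of the 13, 12 lay in the windows and the other at Ptprz1 -41.1 kb. The 20 regions also had more ATAC-seq reads than the consensus regions as a whole. Their median of the authors' mean log2 reads in WT was 8.54, against 7.07 over all. The part of this in the share was not tested. Of the 14 Tcf4 summits, 8 had a CANNTG core within 75 bp (57.1%), beside 46.1% of all 14085 reproducible Tcf4 regions, read on GRCm38. CAGCTG was at 3 of the 14 summits (21.4%, beside 14.4% overall), and CAGATG or CATCTG at 2 (14.3%, beside 10.4% overall). CANNTG reads the same on either strand, and the other cores are cases of it. The sequences below are the 151 bases around 8 of these summits, on the plus strand of GRCm38, with every CANNTG core in capitals. All 8 lie in regions described below. The Gpr17 summits were left out, though their regions are described too. The 8 are not a sample of all 14, since 6 of the 8 shown held a core, against 2 of the 6 not shown. Among the latter, the window at the Gpr17 promoter held none.
Bcas1 +21.4 kb, chr2:170406365-170406515: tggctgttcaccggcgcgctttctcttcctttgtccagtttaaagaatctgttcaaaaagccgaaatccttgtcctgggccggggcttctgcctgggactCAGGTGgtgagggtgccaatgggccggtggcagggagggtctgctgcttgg
Enpp6 +1.9 kb, chr8:46988708-46988858: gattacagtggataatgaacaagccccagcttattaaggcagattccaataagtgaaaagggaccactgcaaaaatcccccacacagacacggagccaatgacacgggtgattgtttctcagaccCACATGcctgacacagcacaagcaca
Enpp6 +19.1 kb, chr8:47005924-47006074: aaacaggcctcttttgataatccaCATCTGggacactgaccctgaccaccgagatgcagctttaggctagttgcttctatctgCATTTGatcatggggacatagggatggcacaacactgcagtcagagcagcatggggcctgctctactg
Cspg4 +3.58 kb, chr9:56868543-56868693: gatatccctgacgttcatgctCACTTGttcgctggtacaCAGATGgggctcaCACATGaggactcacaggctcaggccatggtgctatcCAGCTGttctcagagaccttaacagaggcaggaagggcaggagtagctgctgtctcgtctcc
Cspg4 +16.5 kb, chr9:56881420-56881570: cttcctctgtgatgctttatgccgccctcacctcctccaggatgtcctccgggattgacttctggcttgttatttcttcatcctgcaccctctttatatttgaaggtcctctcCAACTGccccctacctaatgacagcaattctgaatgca
Pdgfra -3.66 kb, chr5:75148560-75148710: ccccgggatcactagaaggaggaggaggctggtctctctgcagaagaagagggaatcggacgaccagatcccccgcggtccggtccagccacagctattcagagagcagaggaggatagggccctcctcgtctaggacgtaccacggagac
Pdgfra +11.2 kb, chr5:75163466-75163616: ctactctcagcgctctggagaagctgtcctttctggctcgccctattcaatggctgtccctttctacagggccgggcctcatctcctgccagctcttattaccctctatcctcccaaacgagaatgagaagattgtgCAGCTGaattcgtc
Nkx2-2 +13.1 kb, chr2:147181101-147181251: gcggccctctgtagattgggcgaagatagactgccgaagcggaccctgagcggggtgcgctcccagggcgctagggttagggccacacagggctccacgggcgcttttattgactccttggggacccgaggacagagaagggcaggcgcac
Positions in kb are distances from the first base of the gene in GENCODE M21, in the direction of transcription. The Cspg4 intron window held 4 cores, the nearest a CAGCTG whose centre lay 16.5 bp from the summit. The Enpp6 +19.1 kb window held 2 cores, the nearer a CATTTG 10.5 bp from the summit, and the Bcas1 window 1, a CAGGTG 27.5 bp from it. The Nkx2-2 window and the Pdgfra window at -3.66 kb held none. At the centres of the 20 consensus regions, CANNTG was within 75 bp in 12 of 20, beside 49.2% of all consensus regions. A core is a match of letters and not a shown site.

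The question of the ATAC-seq comparison is whether open chromatin at these genes differed between Tcf4 cKO and WT cells. In the authors' mean log2 normalized reads, 7 of the 20 regions were lower by more than 0.5 in Tcf4 cKO (35.0%, against 12.6% of all consensus regions) and 0 were higher by more than 0.5 (against 8.38%). The median difference of the 20 regions was -0.32, against -0.10 over all regions, and 18 of the 20 differences were below 0, as were 63.5% of all. These are differences of 1 deposited mean per genotype, with no error. As stated above, the 20 regions had more reads than the consensus regions as a whole, and the part of this in these shares was not tested. The 4 largest differences were all in committed precursor genes. Enpp6 had -1.42 and -1.04 at its only 2 regions, Bcas1 -1.12 at 1 of 3, and Gpr17 -0.86 and -0.48. Among the OPC genes, Cspg4 had 2 regions and Pdgfra 1 past -0.5, and Vcan, Ptprz1 and Nkx2-2 had none.

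**Figure D1:**
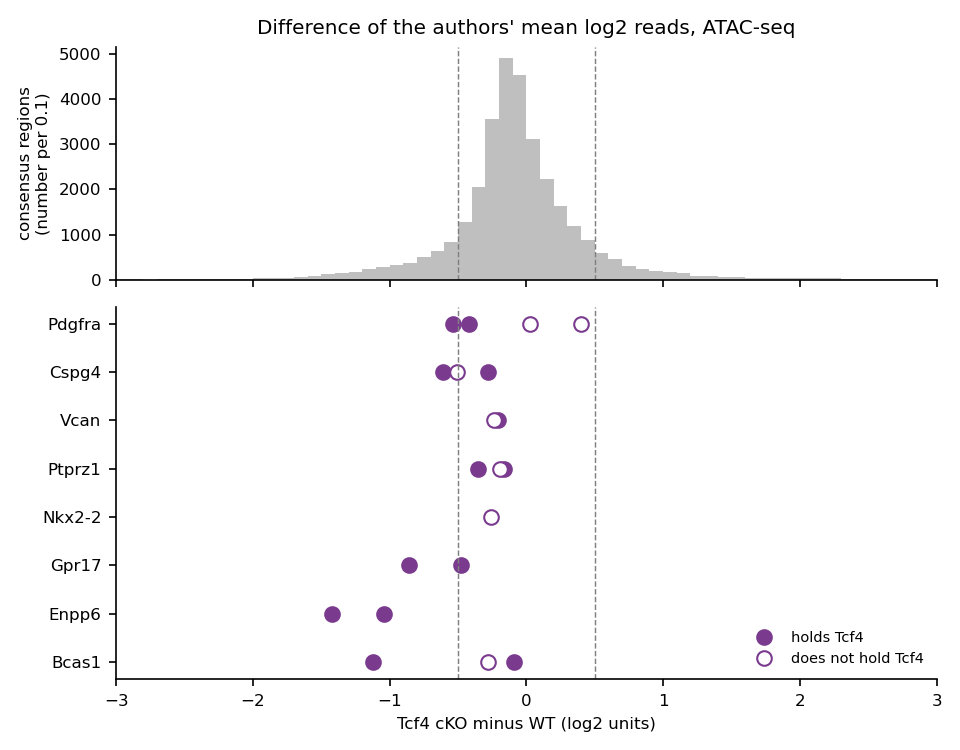
Top, number of consensus regions by difference of the authors' mean log2 reads (Tcf4 cKO minus WT, log2 units, bins of 0.1, values past 3 drawn in the end bins). Bottom, the 20 regions of the 8 genes, filled where reproducible Tcf4 regions covered at least 30%; dashed lines stand at -0.5 and 0.5, and the 7 regions left of -0.5 belong to Pdgfra, Cspg4, Gpr17, Enpp6 and Bcas1.

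Differences were tested over all 30379 consensus regions with a peak in each of the 4 libraries, which included all 20, with limma and Benjamini-Hochberg adjustment. The first test used log2 fold enrichment over the local background, quantile-normalized. None of the 20 regions passed an adjusted p of 0.05, where 0.777% of all regions were lower and 0.586% higher. At an unadjusted p under 0.05 there were 2 of 20 (10.0%), against 13.9% of all regions. MACS2 takes the local background from the neighborhood of a peak, which at widely open loci contains the peak itself. The same test was therefore run on the summit pileup, a choice made after seeing the data. It placed 1.27% of all regions lower and 1.29% higher, and called 1 of the 20, which was in Bcas1. At an unadjusted p under 0.05 it gave 5 of 20 (25.0%), beside 19.7% of all regions.

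The Bcas1 region lay at +21.2 kb (chr2:170406187-170407097), over an exon and the start of a shorter annotated Bcas1 transcript. Its summit pileup was 78 and 89 in WT and 34 and 36 in Tcf4 cKO. Relative to the library median this was 2.23 and 2.02 against 1.06 and 1.16, so the genotypes did not overlap and the Tcf4 cKO libraries lay near the median. A lack of overlap is common: of all regions tested, 21.5% were lower and 25.6% higher in this way. After quantile normalization the Tcf4 cKO pileup was 0.521 of that in WT, a log2 fold change of -0.94 ± 0.14 (SE) in limma, with an adjusted p of 0.0407. The local background recovered from the same peaks was 12.7 and 17.5 in WT and 7.7 and 8.3 in Tcf4 cKO. Fold enrichment, which divides by that background, was 5.77 and 4.87 against 4.04 and 3.97, with a limma adjusted p of 0.38. With any 1 library left out, limma called no consensus region by pileup, and the adjusted p of the Bcas1 region was 0.305 to 0.412 at log2 fold changes of -0.86 to -1.02. The region was covered by Tcf4 over 93.0% of its length. H3K27ac had a peak there in all 4 libraries, with pileups of 27 and 19 in WT and of 24 and 21 in Tcf4 cKO. These overlapped, and the limma adjusted p of the H3K27ac pileup was 0.988. The other 2 Bcas1 regions lay downstream of the gene, at +83.4 kb and +104.0 kb. Their pileups of 39 and 51 against 47 and 34, and of 24 and 26 against 19 and 17, overlapped between genotypes once divided by the library median.

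Enpp6 had 2 intronic regions, both held by Tcf4. The region at +19.0 kb (chr8:47005369-47006353) had pileups of 20 and 31 in WT and of 9 and 13 in Tcf4 cKO, with no overlap. Its log2 fold change was -0.92 ± 0.21 (SE), and the limma adjusted p was 0.0793, which median centring in place of quantile normalization took to 0.0199. The region at +1.66 kb (chr8:46988065-46989021) had 35 and 46 in WT and 24 and 22 in Tcf4 cKO, again with no overlap. Its log2 fold change was -0.52 ± 0.13 (SE), with a limma adjusted p of 0.103. Fold enrichment at this region was 10.06 and 10.17 in WT and 9.77 and 9.20 in Tcf4 cKO, since the recovered background was lower too, at 2.6 and 3.6 against 1.6 and 1.5. H3K4me1 had a peak at both Enpp6 regions in all 4 libraries. Its pileup at +18.9 kb was 18 and 21 in WT and 17 and 15 in Tcf4 cKO, with a limma adjusted p of 0.599. A further intronic region, at +29.6 kb and without a gene symbol in the table, had ATAC-seq pileups of 10 and 19 against 16 and 18. Relative to the library median this was 0.29 and 0.43 in WT and 0.50 and 0.58 in Tcf4 cKO, higher without overlap and so opposite to the other 2 Enpp6 regions. Its log2 fold change was 0.57 ± 0.22 (SE), with a limma adjusted p of 0.239.

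Gpr17 had a region at its promoter and 1 upstream. The promoter region (chr18:31949340-31950370) had pileups of 83 and 90 in WT and of 52 and 58 in Tcf4 cKO. Relative to the library median this was 2.37 and 2.05 against 1.62 and 1.87, with no overlap. The log2 fold change was -0.33 ± 0.15 (SE), with a limma adjusted p of 0.302. Its fold enrichment was 3.72 and 3.36 against 3.22 and 3.60, which did not separate the genotypes, and the local background was 21.6 and 26.1 against 15.5 and 15.4. The region at -4.12 kb had 87 and 88 against 62 and 72, and overlapped between genotypes relative to the library median. Neither Gpr17 region carried a peak of H3K4me1, H3K27ac or H3K27me3 in any library.

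Cspg4 had 3 intronic regions. At +3.36 kb (chr9:56867942-56868846) the pileup was 78 and 94 in WT and 54 and 47 in Tcf4 cKO, with a log2 fold change of -0.44 ± 0.13 (SE) and a limma adjusted p of 0.15. At 11960 bp it was 56 and 62 against 35 and 39, with a limma adjusted p of 0.286. Neither of these regions overlapped between genotypes, and neither passed. At +16.3 kb, the widest of the 3, it was 79 and 90 against 69 and 63, which overlapped relative to the library median. Pdgfra had 4 regions, whose differences did not share a direction. At +11.1 kb the pileup was 94 and 103 in WT and 69 and 71 in Tcf4 cKO, and at -3.57 kb 41 and 58 against 34 and 32. At -9.0 kb (chr5:75142987-75143591) it was 13 and 18 in WT and 19 and 20 in Tcf4 cKO, and the relative pileup was 0.37 and 0.41 against 0.59 and 0.65. This was a log2 fold change of 0.61 ± 0.14 (SE) with a limma adjusted p of 0.0811, or 0.0316 with median centring. At +4.23 kb, at the start of the annotated coding transcripts, it was 44 and 66 against 60 and 49, or 1.26 and 1.5 against 1.88 and 1.58 of the library median. This was higher without overlap, with a limma adjusted p of 0.35. The 2 lower regions held Tcf4, and the other 2 did not by the rule of both libraries. Inside the +4.23 kb region, at +4.02 kb, Tcf4-tag replicate 1 alone had a Tcf4 peak, with a pileup of 31.

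The remaining OPC genes had no difference past 0.5 in the authors' means. Vcan had pileups of 64 and 64 against 51 and 46 at +2.08 kb, and of 63 and 65 against 49 and 43 at its start. Ptprz1 had 61 and 79 against 61 and 56 at -41.1 kb, 68 and 81 against 64 and 49 at its start, and 32 and 51 against 29 and 33 at +34.2 kb. Nkx2-2 had 76 and 88 against 55 and 63 at its promoter. Their limma adjusted p by pileup was between 0.674 and 0.882. Over the 20 regions, both Tcf4 cKO libraries lay below both WT libraries in relative pileup at 8 (40.0%, against 21.5% of all regions tested), and above at 3 (15.0%, against 25.6%). The 8 were 2 each in Pdgfra, Cspg4 and Enpp6, and 1 each in Gpr17 and Bcas1. The 3 were Pdgfra -9.0 kb, Pdgfra +4.23 kb and Ptprz1 -41.1 kb. The median log2 fold change of the pileup was -0.15 over the 20 regions and 0.00 over all.

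**Figure D2:**
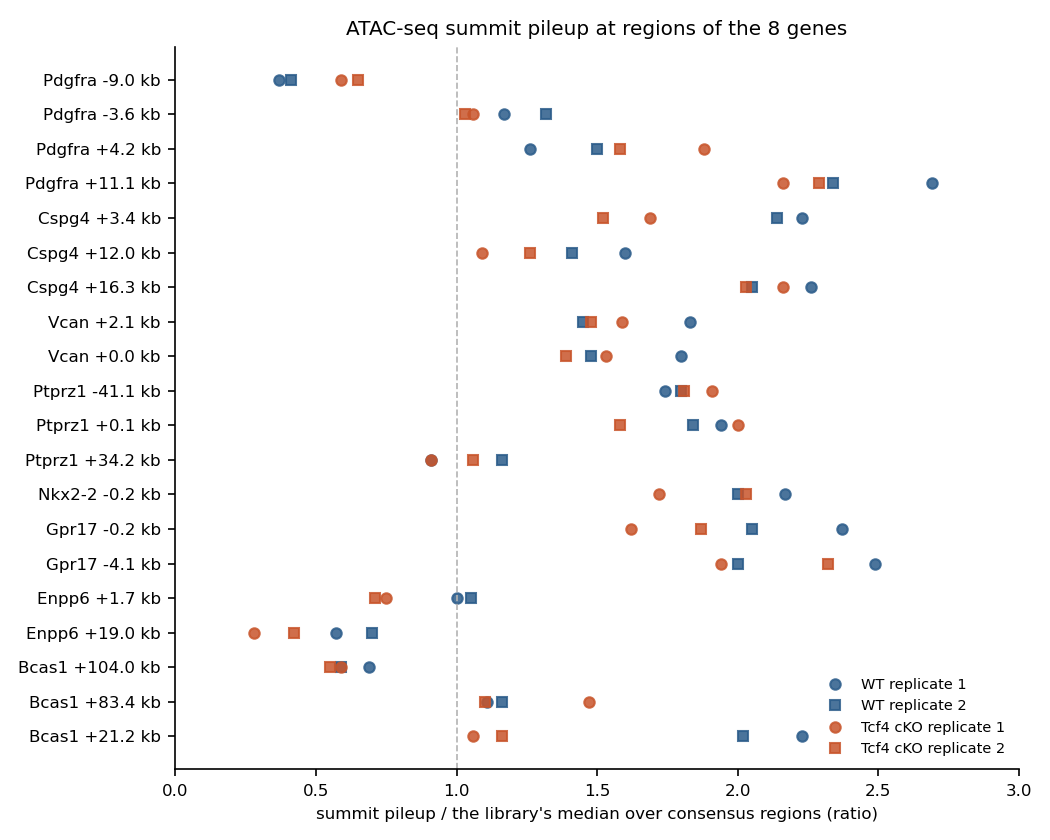
ATAC-seq summit pileup of each library divided by that library's median over consensus regions (x axis, ratio; dashed line at 1), for the 20 regions named by gene and distance of their centre from the gene's first base. Circles are replicate 1 and squares replicate 2; the Bcas1 region at +21.2 kb has WT at 2.23 and 2.02 and Tcf4 cKO at 1.06 and 1.16.

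The consensus table holds a subset of the ATAC-seq peaks. All 20 regions had a peak in every library, so none was present in 1 genotype alone, where 1.02% of all consensus regions were present in WT alone and 0.56% in Tcf4 cKO alone. When every peak of the windows was merged over the 4 libraries, also after seeing the data, there were 66 merged peaks. Of these, 5 were called in each WT library and in no Tcf4 cKO library (4.83% of all merged peaks did), and 1 the reverse (3.49% of all). Bcas1 had 3 of the 5, at -8.7 kb (pileups of 13 and 16), +16.0 kb (16 and 18) and +36.9 kb (16 and 23), and the single reverse case at +16.6 kb (12 and 15), which lies beside the +16.0 kb peaks of WT. Vcan had 1 at +15.9 kb (18 and 17), and Ptprz1 1 at +126.0 kb (9 and 16). All were weak beside the Bcas1 region at +21.2 kb. Leaving out WT replicate 1 raised the merged peaks found in 1 genotype alone from 6 to 14, and leaving out either Tcf4 cKO library to 11. With a library left out the rule asks for fewer libraries, so such a count can stay or rise but cannot fall. ATAC-seq peaks covered 5.07 and 7.75 kb of the Bcas1 window in WT and 2.47 and 4.34 kb in Tcf4 cKO, and 2.36 and 2.83 kb against 1.58 and 1.59 kb of the Enpp6 window. Over all 8 windows they covered 30.6 and 41.4 kb in WT and 29.0 and 27.7 kb in Tcf4 cKO, and in the whole genome 36.1 and 48.5 Mb against 40.4 and 37.7 Mb.

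The windows also held 7 consensus regions that the table assigns to another gene or to none. In the authors' means 1 of the 7 was lower by more than 0.5 and 1 higher. The lower one was at Pdgfra +46.6 kb, assigned to Mir7025, with pileups of 36 and 55 in WT and 23 and 28 in Tcf4 cKO. The genotypes did not overlap there, and the limma adjusted p was 0.205. The higher one was at Bcas1 +72.7 kb, in the gene that held the region called lower, and is assigned to Bcas1os2. Its pileups were 18 and 22 in WT and 28 and 22 in Tcf4 cKO, or 0.51 and 0.50 against 0.88 and 0.71 of the library median, with no overlap. Its log2 fold change was 0.57 ± 0.16 (SE), with a limma adjusted p of 0.126. At Cspg4 -12.9 kb, in the promoter of Odf3l1, the pileups were 25 and 29 against 17 and 26. At Vcan +73.0 kb they were 12 and 18 against 13 and 14, and at the Lims2 promoter downstream of Gpr17 24 and 29 against 25 and 23. Relative to the library median the Lims2 promoter was at 0.69 and 0.66 against 0.78 and 0.74, higher without overlap. None of the 7 passed either test.

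**Figure D3:**
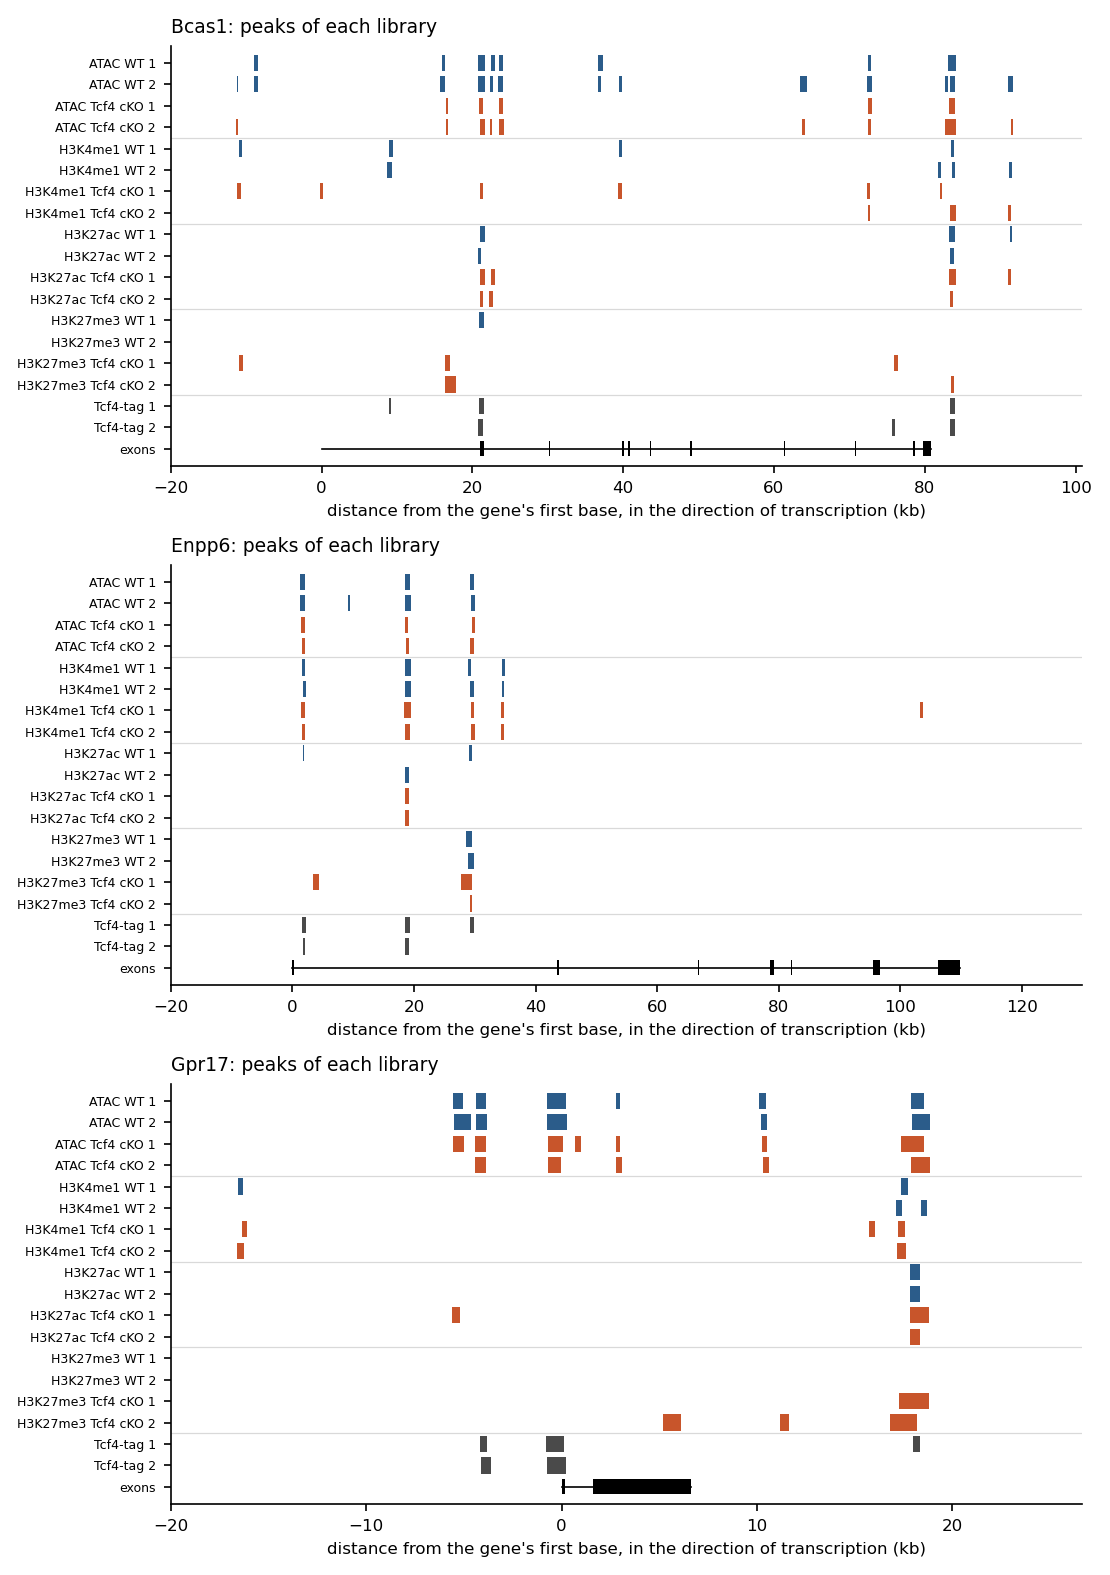
Peaks of each library (rows; blue WT, orange Tcf4 cKO, gray Tcf4-tag) at the committed precursor genes Bcas1, Enpp6 and Gpr17, by distance from the gene's first base in the direction of transcription (kb), with exons in black. Tcf4 peaks of both libraries lie under ATAC-seq peaks of all 4 libraries at Bcas1 +21.2 kb, at both Enpp6 regions and at both Gpr17 regions. H3K27me3 in the Gpr17 window is present in Tcf4 cKO rows alone, and in both of them only at +17.8 kb, over the neighboring gene Lims2.

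The histone marks were compared at merged peak regions in the windows. For H3K4me1 there were 48, of which 12 had a peak in all 4 libraries. For H3K27ac there were 30, with 9 in all 4, and for H3K27me3 24, with 6 in all 4. By fold enrichment limma called none of these lower or higher (0.0% of all H3K4me1, H3K27ac and H3K27me3 regions tested, in either direction). At an unadjusted p under 0.05 there was 1 of 12 for H3K4me1 (7.02% of all), 0 of 9 for H3K27ac (6.73% of all) and 1 of 6 for H3K27me3 (15.1% of all). The H3K4me1 region was at Enpp6 +29.5 kb, with fold enrichments of 3.09 and 3.44 in WT and of 4.17 and 4.69 in Tcf4 cKO (limma adjusted p of 0.618). The H3K27me3 region was at Pdgfra +2.74 kb, with 2.61 and 2.66 in WT and 2.38 and 2.09 in Tcf4 cKO (limma adjusted p of 0.272). By summit pileup limma called 0 of the 12 H3K4me1 regions, as it did 0 of all 26101. It called 0 of the 9 H3K27ac regions, and 1 of all 13797. At an unadjusted p under 0.05 there were 2 of 12 for H3K4me1 (8.18% of all) and 0 of 9 for H3K27ac (8.59% of all). With next to no call anywhere, these zeros are not particular to the 8 genes.

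Marks present in 1 genotype alone stood at few places. H3K4me1 was in WT alone at 2 of 48 regions (2.64% of all H3K4me1 regions) and in Tcf4 cKO alone at 4 (7.51% of all). The 4 were Pdgfra -3.77 kb, with pileups of 28 and 22, Cspg4 -14.5 kb, with 23 and 25, Cspg4 -13.0 kb, with 26 and 23, and Bcas1 +72.6 kb, with 19 and 16. The last lies at an ATAC-seq region assigned to the antisense gene Bcas1os2, which was higher without overlap. Pdgfra -3.77 kb lies at the ATAC-seq region at -3.57 kb, which was lower without overlap and held Tcf4. Cspg4 -13.0 kb lies at the region at -12.9 kb, where the genotypes overlapped, and Cspg4 -14.5 kb at no consensus region. Both Cspg4 sites lie upstream, toward the neighboring gene Odf3l1. The 2 in WT alone were Pdgfra +56.6 kb, with 15 and 13, and Bcas1 +9.11 kb, with 11 and 11. The Tcf4 cKO libraries covered more of the whole genome with H3K4me1 peaks, 42.6 and 37.9 Mb against 27.2 and 32.7 Mb in WT, and the part of this in these counts was not tested. In the windows H3K4me1 peaks covered 10.6 and 13.5 kb in WT and 16.8 and 13.4 kb in Tcf4 cKO, with mean fold enrichments of 3.98 and 3.47 against 3.45 and 3.77. Leaving out 1 library in turn raised the regions in 1 genotype alone from 6 to between 8 and 17, the highest without Tcf4 cKO replicate 2. This count too can only stay or rise when a library is left out.

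H3K27ac was in WT alone at 2 of 30 regions (4.24% of all H3K27ac regions) and in Tcf4 cKO alone at 2 (2.53% of all). The WT pair were Cspg4 +15.9 kb, with pileups of 33 and 30, and Nkx2-2 +13.2 kb, with 30 and 29. Both lay on Tcf4 regions with some of the highest Tcf4 pileups in these windows, and ATAC-seq was open there in all 4 libraries. At the Nkx2-2 site, which also overlaps the antisense gene Nkx2-2os, the ATAC-seq pileup was 90 and 105 in WT and 74 and 79 in Tcf4 cKO, or 2.57 and 2.39 against 2.31 and 2.55 of the library median. The genotypes thus overlapped in openness where an H3K27ac peak was called in WT alone. H3K27me3 also had a peak at this site in all 4 libraries, with fold enrichments of 2.57 and 2.22 against 2.42 and 2.25. In Tcf4 cKO alone were Cspg4 -14.5 kb, with 22 and 16, and Bcas1 +22.6 kb, with 21 and 23. Leaving out 1 library in turn, which loosens the rule, gave 5 to 10 regions in 1 genotype alone, in place of 4. None of the 4 remained with a -log10 q of at least 5.

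H3K27me3 was in WT alone at 0 of 24 regions (4.05% of all H3K27me3 regions) and in Tcf4 cKO alone at 3 (5.36% of all). One lay across the annotated start of Cspg4 (chr9:56864266-56865769), with mean fold enrichments of 2.57 and 2.36. The others were Gpr17 +17.8 kb, over the neighboring gene Lims2, with 2.31 and 2.35, and Bcas1 +17.1 kb, with 2.71 and 2.41. With peaks limited to a -log10 q of at least 5, no H3K27me3 region remained in these windows. Leaving out 1 library in turn, which loosens the rule, gave 6 to 7 regions in 1 genotype alone, in place of 3. At Pdgfra, H3K27me3 had a peak in all 4 libraries at -3.05 kb and +2.74 kb, beside H3K27ac at -3.58 kb in all 4. Vcan likewise carried both marks at its start in all 4 libraries, with H3K27me3 fold enrichments of 3.32 and 2.98 in WT and 3.55 and 3.36 in Tcf4 cKO. In a pool of cell types both marks need not sit on the same chromosomes. H3K27me3 peaks covered 9.19 and 8.99 kb of the windows in WT and 19.2 and 11.9 kb in Tcf4 cKO, with mean fold enrichments of 2.76 and 2.57 against 2.58 and 2.56. In the whole genome they covered 21.1 and 23.3 Mb against 24.9 and 21.4 Mb. The windows of Gpr17 held 0.0 kb in both WT libraries and 1.54 and 2.71 kb in Tcf4 cKO, and those of Bcas1 0.573 and 0.0 kb against 1.66 and 1.83 kb. In the Gpr17 window, both Tcf4 cKO libraries had a peak only at +17.8 kb, over Lims2. The peaks at +11.4 kb and, inside the gene, at +5.65 kb were in Tcf4 cKO replicate 2 alone. With 2 libraries each, an exact permutation test cannot fall under the threshold, so none was made.

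**Figure D4:**
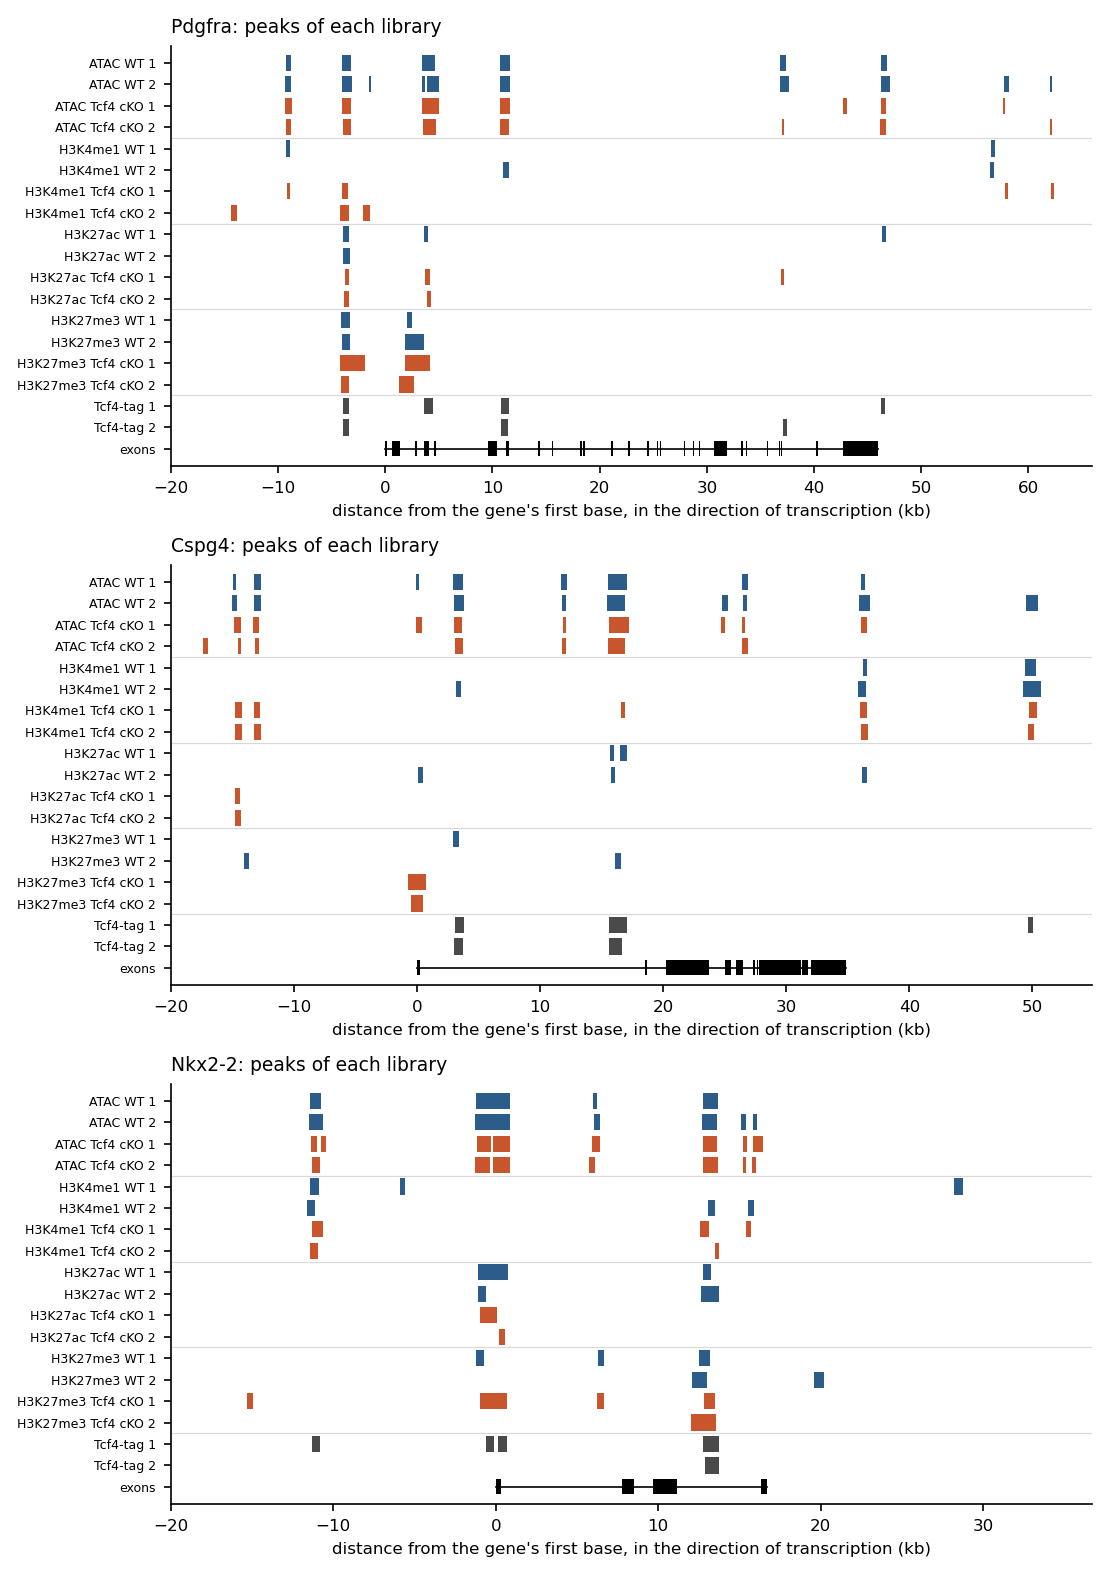
Peaks of each library (rows; blue WT, orange Tcf4 cKO, gray Tcf4-tag) at the OPC genes Pdgfra, Cspg4 and Nkx2-2, by distance from the gene's first base in the direction of transcription (kb), with exons in black. H3K27ac at Nkx2-2 +13.2 kb and Cspg4 +15.9 kb appears in WT rows alone, and H3K27me3 across the start of Cspg4 in Tcf4 cKO rows alone.

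The Tcf4 summit pileup differed between the loci. The Gpr17 promoter had the highest pileups, 84 and 67 in the 2 Tcf4-tag libraries, at percentile 99.6 and 99.4 of all Tcf4 peaks. Cspg4 +16.3 kb had 64 and 39, and Gpr17 -3.88 kb 56 and 46, so that the first was higher in replicate 1 and the second in replicate 2. Cspg4 +3.4 kb had 51 and 29, and Nkx2-2 +13.2 kb 45 and 30. The Bcas1 region at +21.2 kb had 35 and 24, at percentile 90.8 and 89.4, and Enpp6 +18.9 kb had 25 and 18. Enpp6 +1.94 kb had 21 and 14, the lowest in replicate 1. Of the 4 regions with the largest ATAC-seq differences, the Gpr17 promoter thus had the highest Tcf4 pileup of the 14. The 2 Enpp6 regions were among the lower ones by pileup. Fold enrichment over local background gave another order. It was 6.96 and 5.57 at Enpp6 +1.94 kb, 6.26 and 6.3 at Enpp6 +18.9 kb, and 4.55 and 4.55 at Bcas1 +21.2 kb. The Gpr17 promoter had 3.82 and 4.25. The 13 consensus regions that held Tcf4 had a median difference of the authors' means of -0.48, and the 7 that did not had -0.24. Over all consensus regions these medians were -0.16 and -0.03. The split rests on the rule of both libraries. With peaks of either Tcf4-tag library 16 of the 20 regions held Tcf4, and the medians were not taken under that rule. Cover by Tcf4 was measured in tagged cells with intact Tcf4, so it says nothing of the Tcf4 cKO cells.

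**Figure D5:**
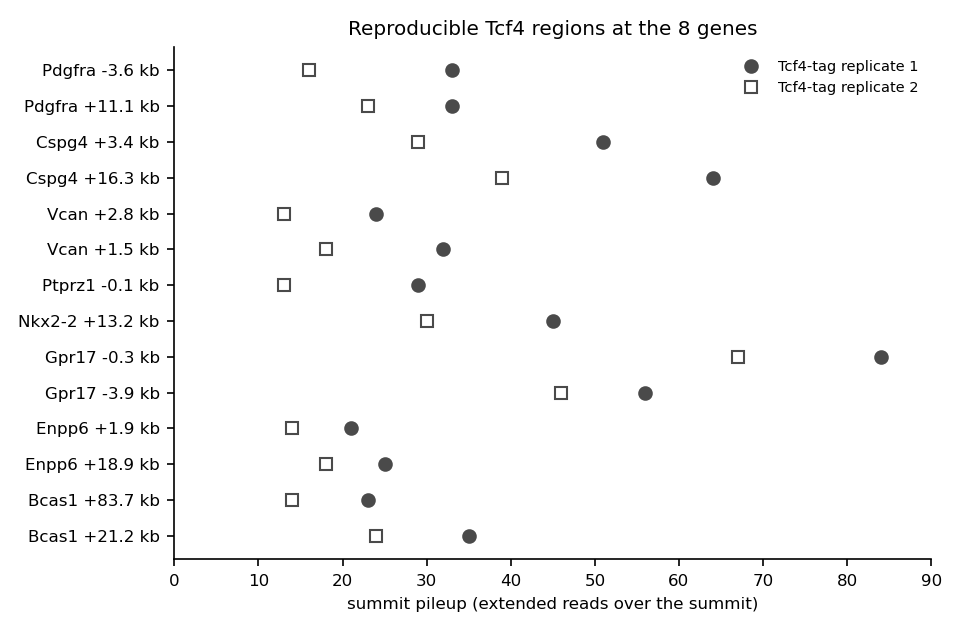
Summit pileup (extended reads over the summit) of the 14 reproducible Tcf4 regions in each Tcf4-tag library, filled circles replicate 1 and open squares replicate 2, by gene and distance from the gene's first base. Both Gpr17 regions, both Cspg4 regions and Nkx2-2 +13.2 kb lie above the others in both libraries; replicate 2 is lower throughout.

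Other genes of the precursor program were read from a list of 23, of which 20 had a consensus region. Of their 106 regions, 98 had a peak in all 4 libraries. By fold enrichment limma called 0 of the 98 lower and 0 higher, and by pileup 0 lower and 1 higher, where 1.27% of all regions were called lower and 1.29% higher. A count of 1 in 98 is thus below the share over all regions. The one was in Fyn, which encodes a kinase of myelination, with pileups of 23 and 36 in WT and 43 and 43 in Tcf4 cKO (limma adjusted p of 0.049), and it was named after its values were seen. In the authors' means 24 of the 106 regions were lower by more than 0.5 (22.6%, against 12.6% of all consensus regions). There were 9 higher (8.49%, against 8.38%), and the median difference was -0.16, against -0.10 over all. A region of Sirt2, a deacetylase of oligodendrocytes, and 1 of Tns3, which marks newly forming oligodendrocytes, had peaks in WT libraries alone. These were 2 of the 106, where 1.02% of all consensus regions had peaks in WT alone. The Sirt2 region had pileups of 22 and 34, a difference of the authors' means of -1.95 and held Tcf4. The Tns3 region had 20 and 24 and a difference of -0.65, so a missing peak call need not mean closed chromatin. A region of Tnr and 1 of Itpr2 had peaks in Tcf4 cKO libraries alone. Tnr encodes the matrix protein tenascin-R, and Itpr2 a calcium channel of the endoplasmic reticulum. The Tnr region had pileups of 17 and 15 and a difference of the authors' means of 1.01. The Itpr2 region had 24 and 21 and a difference of 2.69. Together they were 2 of the 106, where 0.56% of all consensus regions had peaks in Tcf4 cKO alone. Of the 106 regions, 52 held Tcf4 (49.1%, against 36.3% of all consensus regions).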

How the data were processed

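ATAC-seq and Cut&Tag peak lists of sorted Nkx2.1-lineage neocortical cells were analyzed, each assay with 2 libraries per group. Per the labels and the study's methods, the authors trimmed reads with Trim Galore, aligned them to mm10 with Bowtie 2, removed duplicates with SAMtools and ran MACS2 library by library, with no control library named. ATAC-seq reads were shifted and extended around the cut site. Cut&Tag peaks used default settings. The deposited lists give a fold enrichment over local background, as a ratio, and p- and q-values as -log10. H3K27me3 was called with broad peaks, whose fold enrichment is a mean over the peak. The authors' deposited consensus table gives 1 mean of log2 normalized reads per genotype. Its columns of fold change, p-value and FDR hold the authors' own comparison and were not used, nor was a table of motif footprints. Single-cell RNA sequencing was not analysed here.

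The 8 genes, the other gene lists and the tests were chosen with earlier results of these data known. All regions of the 8 genes in the consensus table or the windows could be named, and other precursor genes only where a region passed the ATAC-seq test or was present in 1 genotype alone. Gene bodies came from GENCODE M21, and sequences from RefSeq GRCm38. For each region the highest fold enrichment of the overlapping peaks of each library was used, in log2, with quantile normalization. Tcf4 cKO minus WT was fitted with limma 3.58.1 in R 4.3.3, two-sided, over all regions with a peak in all 4 libraries, with an adjusted p of 0.05 as threshold. The summit pileup k and local background were solved from fold enrichment, (k + 1) / (background + 1), and the Poisson p-value. A whole k was found for 100.0% of narrow peaks within 0.001 of the deposited -log10 p-value. This unit was chosen after seeing the files. Pileups are counts over 1 base of reads extended by MACS2, and read totals of the libraries are not known. The scripts used Python 3.11.15, pandas 2.3.3, scipy 1.17.1 and pysam 0.24.0, and were tested on simulated data. There limma on fold enrichment recovered 0% of planted log2 changes of 1 for ATAC-seq, H3K4me1 and H3K27ac, and 91% for H3K27me3. Of planted changes of 2 it recovered 76%, 55%, 73% and 96%, in the same order of assays. False calls at 2 numbered 2, 1, 6 and 128. Alternatives were other normalizations, a -log10 q of at least 5, an overlap of 50%, other windows, a replicate block and leaving out each library.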

Additional observations from a re-analysis of the deposited data

How the results depend on the processing

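Peak lists hold only what passed the peak caller, and 2 libraries per genotype give little power, so a missing call does not show that a region was unaltered. Among counts and ratios, 111 of the alternative values stayed within 1.5 times the count or within 1 SD, and 32 moved. Many of those that stayed were counts of 0 called regions that remained 0. Some settings left no region to test, so the tally does not measure how stable the results are. For ATAC-seq fold enrichment, the count of called regions went from 0 to 1 with the replicate block (Pdgfra -9.0 kb, adjusted p of 0.03 in limma), while calls over all regions rose from 236 lower and 178 higher to 636 and 562. For H3K27me3 it went from 0 to 3 higher with regions present in at least 2 of 4 libraries, where calls over all regions rose from 0 to 1074 lower and 1392 higher. For ATAC-seq summit pileup, 1 call became 3 with median centring (2 lower, 1 higher), as calls over all regions rose from 387 lower and 391 higher to 1146 and 1512. It became 0 with the replicate block (287 and 288 over all regions), where the Bcas1 region had a limma adjusted p of 0.051. It was 0 to 0 without each library in turn, which ended the Bcas1 call under all 4.

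The replicate numbers did not pair the libraries: deviations of same-numbered libraries correlated at -0.00694 (ATAC-seq), 0.00289 (H3K4me1), 0.0271 (H3K27ac) and 0.0151 (H3K27me3).

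Regions present in 1 genotype alone fell from 6 to 2 for H3K4me1, from 4 to 0 for H3K27ac and from 3 to 0 for H3K27me3 with a -log10 q of at least 5, where no H3K27me3 region remained in the windows. For H3K4me1 they were 2 in gene bodies alone and 11 with 50 kb, and for H3K27me3 5 with 50 kb. Leaving out each library gave 8 to 17 for H3K4me1, 5 to 10 for H3K27ac, 6 to 7 for H3K27me3 and 8 to 14 for merged ATAC-seq peaks. By their rule these counts cannot fall when a library is left out, so their rise does not measure stability. Regions lower by over 0.5 in the authors' means numbered 7, and 3 at a threshold of 1.0. Tcf4 regions in the windows numbered 14, 26 with peaks of either library, and 16 to 24 without each library. Both alternatives are looser than the rule of both libraries. The ratio of covered length, Tcf4 cKO over WT, went from 1.25 to 1.52 for H3K4me1 with a -log10 q of at least 5, and from 1.71 to 1.16 for H3K27me3 with 50 kb. No ratio could be had for H3K27me3 with a -log10 q of at least 5. Apart from the looser rules just named, the causes of these shifts were not tested.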
